A study of Mus musculus with 20 samples.

Results

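The Myc family and its Max-binding partners were followed across 6 groups of mouse bone marrow cells. Members were the 10 genes Myc, Mycn, Mycl, Max, Mxd1, Mxd3, Mxd4, Mxi1, Mnt and Mga, each represented by the probe set whose annotated gene symbol is exactly that name. They are 10 of 22180 genes with such a probe set. Mxi1 had several, and the brightest of them on average over the 20 arrays was kept. All 10 members passed the filter on dim genes, which left 16638 genes to test. The groups were CMPs from CreER-Raptor mice (3 arrays) and from WT mice (3 arrays), GMPs from CreER-Raptor mice (3 arrays) and from WT mice (3 arrays), and Lin- cells given M-CSF from CreER-Raptor mice (4 arrays) and from WT mice (4 arrays). All mice were female on a C57BL/6 background. CMPs are common myeloid progenitors, GMPs are granulocyte-macrophage progenitors, and Lin- cells are marrow cells without markers of mature blood lineages. CMPs and GMPs were lysed straight after sorting, whereas the Lin- cells spent 12 h in culture with 10 ng/ml macrophage colony-stimulating factor (M-CSF). CreER-Raptor mice carry CreER, a tamoxifen-dependent recombinase, and floxed Rptor alleles. Rptor encodes Raptor, the scaffold of the growth kinase complex mTORC1. The labels do not say which promoter drives CreER, whether or when it was activated, whether WT mice carried it, or whether each replicate was its own animal. The p-values therefore refer to the spread between arrays, which may be technical.

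Myc, N-Myc and L-Myc are transcription factors that bind DNA as dimers with Max, mostly at E-box sequences, and are known for raising ribosome production, metabolism and cell division. Mxd1, Mxd3, Mxd4, Mxi1 and Mnt dimerise with Max as well but recruit Sin3 corepressor complexes and repress E-box genes, and Mga joins Max to a Polycomb complex. In myeloid cells a shift from Myc-Max towards Mxd-Max dimers is known to go with the end of division and with maturation, and mTORC1 is known to influence the translation and the abundance of Myc protein. The arrays measure RNA and hold no information on protein levels or dimers.

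Expression is given as log2 signal, in which 1 unit is a doubling, and differences are given with the standard error of a limma fit of all genes. A difference was called at a Benjamini-Hochberg adjusted p under 0.05 over the 16638 genes. Groups are said not to overlap where every array of 1 group lies above every array of the other. The share of all genes without overlap is not given here, so a lack of overlap only describes the arrays and adds no weight to a difference. Arrays of a group correlated at 0.982 or more, and the Lin- arrays spread more around their group means than the sorted ones (residual SD of 0.171 to 0.236, against 0.109 to 0.168). The Rptor probe set itself was not called, with differences of -0.29, -0.17 and -0.18 in CreER-Raptor CMPs, GMPs and Lin- cells (limma adjusted p = 0.163, 0.465 and 0.305). Whether its probes fall inside the floxed exons was not examined, and probes outside them would check no label. In bulk samples, fewer cells of a type and less RNA per cell cannot be told apart.

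CreER-Raptor CMPs differed from WT CMPs in 1 of the 10 members, GMPs in 3 and Lin- cells in 3. The share of all tested genes with a call was 11.4% for CMPs, 11.9% for GMPs and 12.5% for Lin- cells. Myc was called higher in GMPs and Lin- cells, Mxd3 was called lower in both of these, and Mxd4 was called lower in CMPs. When the test required a change of at least 1.5-fold, 0 members were called in each of these comparisons. The median difference over the 10 members was 0.02 in CMPs, 0.09 in GMPs and 0.25 in Lin- cells, beside medians over all genes of -0.01, 0.016 and 0.012.

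**Figure D1:**
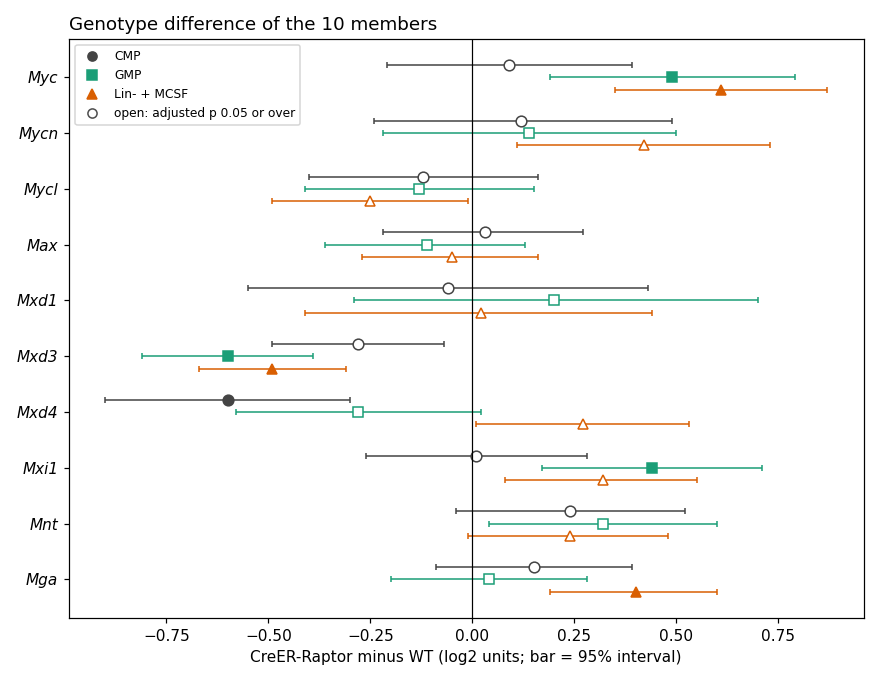
Difference CreER-Raptor minus WT in log2 units for each member (rows) in CMPs, GMPs and Lin- cells with M-CSF, with bars for the 95% interval of the limma fit. Filled symbols mark an adjusted p under 0.05: Mxd4 in CMPs, Myc, Mxd3 and Mxi1 in GMPs, and Myc, Mxd3 and Mga in Lin- cells.

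Myc, the founding member, is a known regulator of growth and division in blood progenitors. Its log2 signal was 10.43, 10.26 and 10.50 on CreER-Raptor GMP arrays, against 9.91, 9.80 and 10.03 on WT GMP arrays. The genotypes did not overlap in GMPs, and Myc rose by 0.49 ± 0.14 (adjusted p = 0.0309), a 1.40-fold higher signal. In Lin- cells it read 9.85, 10.00, 9.89 and 9.96 on CreER-Raptor arrays, against 9.62, 9.30, 9.34 and 8.99 on WT arrays. Again no array overlapped, and the rise was 0.61 ± 0.13 (adjusted p = 0.00229), 1.53-fold. CMPs gave 10.27, 9.98 and 10.58 in CreER-Raptor cells, against 10.20, 10.08 and 10.29 in WT cells, so that the CreER-Raptor arrays lay on both sides of the WT ones. The CMP difference was 0.09 ± 0.14 (limma adjusted p = 0.836), with a 95% interval of -0.21 to 0.39.

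The Myc call in Lin- cells kept an adjusted p of at most 0.0107 with any of the 8 arrays left out. The GMP call was lost, at a similar difference, without CreER-Raptor GMP replicate 1 (0.47, adjusted p = 0.0952) or 3 (0.44, 0.0915), or without WT GMP replicate 1 (0.48, 0.0837) or 2 (0.43, 0.134). The genotype difference of Myc was not called as unequal between populations: Lin- cells exceeded CMPs by 0.53 ± 0.19 (limma adjusted p = 0.108), and GMPs exceeded CMPs by 0.40 ± 0.20 (0.429). With array weights these differences were called, at 0.58 (adjusted p = 0.0398) and 0.46 (0.045). The weights were 4.7 for CreER-Raptor GMP replicate 1, against 0.82 and 0.52 for replicates 2 and 3. The weighted mean of CreER-Raptor GMPs therefore rests mostly on 1 array. The difference between Lin- cells and CMPs was also called without CreER-Raptor CMP replicate 3 (0.68, 0.0271) or WT Lin- replicate 1 (0.63, 0.0356).

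Mycn and Mycl encode the related N-Myc and L-Myc proteins, better known in other tissues than in committed myeloid cells. Both probe sets read close to the array medians of 4.76 to 4.91, between 3.91 and 4.82 for Mycn and between 4.53 and 5.28 for Mycl over the 20 arrays, and both fell below the 50th percentile filter of 5.15. Neither was called in any of the 12 comparisons of the fit. Mycl arrays did not overlap between genotypes in CMPs, although the difference was only -0.12 ± 0.13 (limma adjusted p = 0.722). The nearest to a call was Mycn in Lin- cells, with 4.80, 4.74, 4.66 and 4.27 on CreER-Raptor arrays and 4.27, 4.70, 3.91 and 3.91 on WT arrays. The genotypes overlapped there, and the difference was 0.42 ± 0.15 (limma adjusted p = 0.0739). It was called without WT Lin- replicate 2 (0.59, adjusted p = 0.0065) or CreER-Raptor Lin- replicate 4 (0.54, 0.0264).

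**Figure D2:**
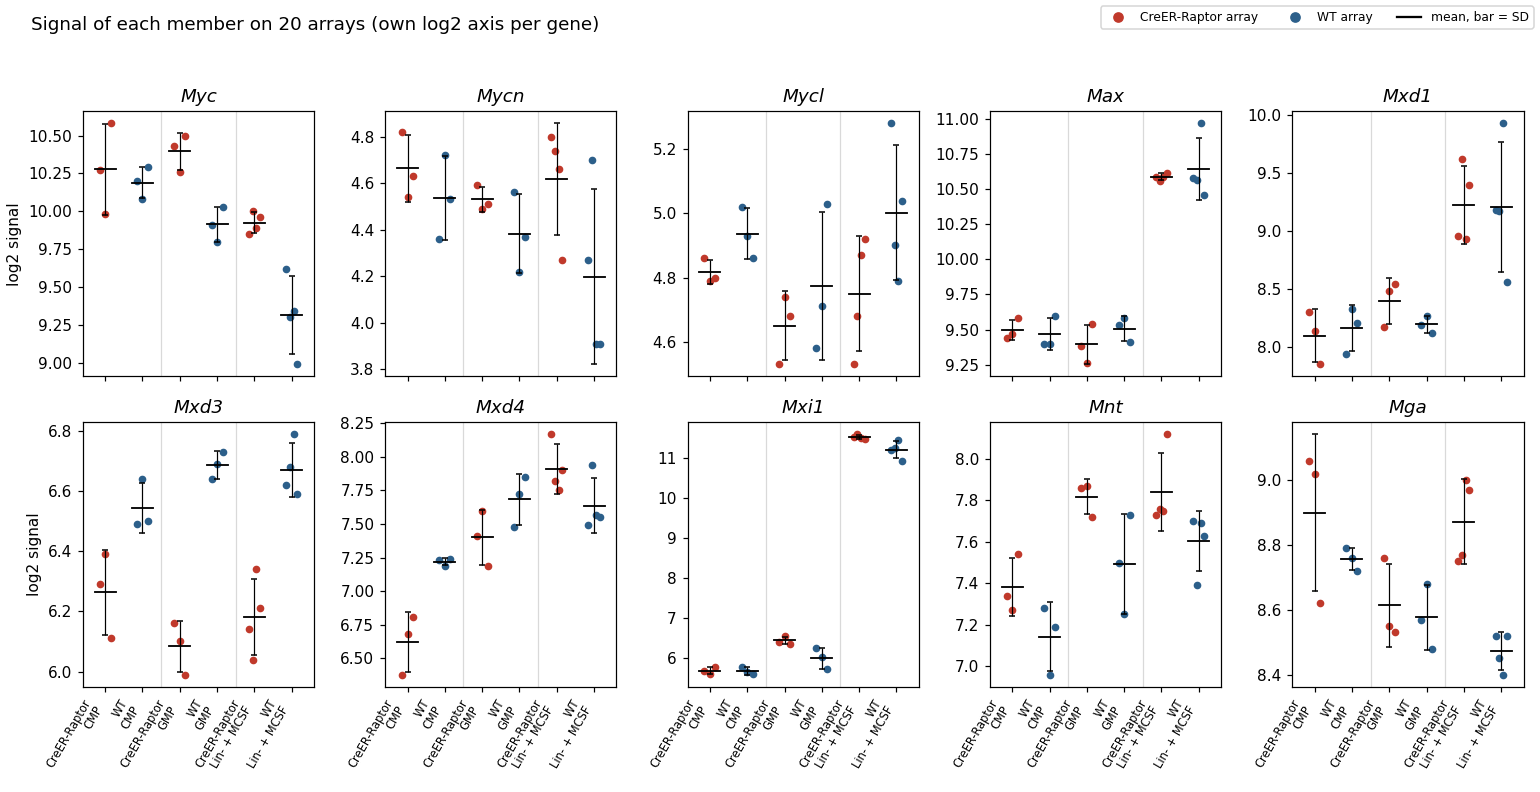
Log2 signal of the 10 members on each of the 20 arrays, with 1 point per array, a line at the group mean and a bar of 1 SD (n = 3 in CMP and GMP groups, n = 4 in Lin- groups). Each panel has its own axis. CreER-Raptor Mxd3 points lie below the WT points in every population, and Max and Mxi1 are higher in all 8 Lin- arrays than in the 12 sorted ones.

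Max, the dimer partner that the other members share, showed no genotype call. CreER-Raptor minus WT was 0.03 ± 0.12 in CMPs, -0.11 ± 0.12 in GMPs and -0.05 ± 0.10 in Lin- cells (limma adjusted p = 0.946, 0.653 and 0.80), with 95% intervals that stayed between -0.36 and 0.27. Max did separate the populations. It read 10.59, 10.56, 10.59 and 10.62 on CreER-Raptor Lin- arrays and 10.58, 10.57, 10.97 and 10.46 on WT Lin- arrays. All 12 CMP and GMP arrays lay lower, between 9.26 and 9.60.

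Mxd1 (Mad1), a repressor known to be induced as granulocytes mature, had no genotype call either. Its differences were -0.06 ± 0.24, 0.20 ± 0.24 and 0.02 ± 0.20 in CMPs, GMPs and Lin- cells (limma adjusted p = 0.937, 0.693 and 0.971). The 95% intervals ran from -0.55 to 0.43 in CMPs and from -0.29 to 0.70 in GMPs. Lin- arrays spread most, at 8.96, 9.62, 8.93 and 9.40 in CreER-Raptor cells and 9.18, 9.17, 9.93 and 8.56 in WT cells.

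Mxd3 (Mad3), the Mxd member known from mouse tissues to be made in dividing cells, mainly in S phase, was lower in CreER-Raptor GMPs and Lin- cells. In GMPs it read 6.16, 6.10 and 5.99 in CreER-Raptor cells, against 6.64, 6.69 and 6.73 in WT cells. Mxd3 fell by 0.60 ± 0.10 on the log2 scale (adjusted p = 0.000342), to 0.66 of the WT signal. In Lin- cells the arrays gave 6.14, 6.04, 6.34 and 6.21 for CreER-Raptor, against 6.62, 6.68, 6.79 and 6.59 for WT. The difference there was -0.49 ± 0.09 (adjusted p = 0.000738). CMPs gave 6.29, 6.39 and 6.11 in CreER-Raptor cells, against 6.49, 6.64 and 6.50 in WT cells. These arrays did not overlap either, but the CMP difference of -0.28 ± 0.10 missed the threshold (limma adjusted p = 0.088), which it passed with array weights (-0.24, 0.0442). The genotype differences of Mxd3 were not called as unequal between any 2 populations, the widest being -0.32 ± 0.14 between GMPs and CMPs (adjusted p = 0.336). Both calls held with any single array left out, at adjusted p of at most 0.00273 in GMPs and 0.00406 in Lin- cells.

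Mxd4 (Mad4), linked in mouse tissues to cells that leave the cycle and differentiate, differed between populations in its genotype difference. In CMPs it read 6.38, 6.68 and 6.81 in CreER-Raptor cells, against 7.23, 7.19 and 7.24 in WT cells. It fell by 0.60 ± 0.15 on the log2 scale (adjusted p = 0.00804). GMP arrays gave 7.41, 7.60 and 7.19 in CreER-Raptor cells, against 7.48, 7.72 and 7.85 in WT cells, an overlapping pair of groups with a difference of -0.28 ± 0.15 (limma adjusted p = 0.259). Lin- arrays gave 8.17, 7.82, 7.75 and 7.90 in CreER-Raptor cells, against 7.49, 7.94, 7.57 and 7.55 in WT cells. The Lin- difference was 0.27 ± 0.13 (adjusted p = 0.177), with only WT replicate 2 inside the CreER-Raptor range. The genotype difference in Lin- cells exceeded that in CMPs by 0.87 ± 0.19 (adjusted p = 0.00572), where 7.77% of genes were called. Leaving out any of the 14 arrays kept this at an adjusted p of at most 0.0247. The CMP call itself was lost without CreER-Raptor CMP replicate 1, the lowest array (-0.48, adjusted p = 0.0644). Between Lin- cells and GMPs the genotype differences of Mxd4 stood 0.55 ± 0.19 apart (adjusted p = 0.119), and 0.65 (0.0435) without WT Lin- replicate 2.

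The stretches of promoter that RefSeq (GRCm38.p6) gives for these members show which carry sequence words tied to the network. Windows of 250 bases before to 50 bases after the annotated start were searched on both strands for the E-box CACGTG, the FoxO site GTAAACA and the GC box GGGCGGG, and for TTTCCCGC, TTTCGCGC, TTTGCCGC and TTTGGCGC as E2F sites. Of the 10 members, 9 were in the table with 11 windows, 3 of them from Mxi1. Myc had no window there, so its promoter was not searched. The E-box is the sequence Myc-Max and Mxd-Max dimers bind, and it lay in the windows of Mxd4 (first base at -219), Mnt (-123) and Max (-3), 3 of the 11 windows, against 7.2% of the 32851 windows in the table. GGGCGGG was in 9 of the 11 windows, from 7 members, against 25.6% of all windows, and 7 of its matches, some overlapping, fell in the Mxd3 window. GTAAACA was found in 1 Mxi1 window (-231), against 3.6% of all windows, and the E2F words in the Mycn window, against 2.3%. These are matches of letters and say nothing of binding. For several members, Mxd3, Max and Mga among them, the start used lay inside the annotated gene span. Starts without a window were not searched. The 250 bases before the start are shown for Mxd3, for its run of GC boxes, and for Mxd4, for its E-box and GC box, and 30 bases around the E-box or FoxO word for Max, Mnt and Mxi1, with matched words in capitals. They lie at chr13:55329732-55329981 (minus strand) for Mxd3, chr5:34187711-34187960 (minus) for Mxd4, chr12:76962234-76962263 (minus) for Max, chr11:74830789-74830818 (plus) for Mnt and chr19:53329452-53329481 (plus) for Mxi1.
Mxd3: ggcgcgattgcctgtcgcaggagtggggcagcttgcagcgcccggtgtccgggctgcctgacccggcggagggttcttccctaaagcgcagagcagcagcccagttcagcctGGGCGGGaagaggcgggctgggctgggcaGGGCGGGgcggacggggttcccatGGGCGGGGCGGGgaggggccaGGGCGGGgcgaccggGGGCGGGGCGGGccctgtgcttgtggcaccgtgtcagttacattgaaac
Mxd4: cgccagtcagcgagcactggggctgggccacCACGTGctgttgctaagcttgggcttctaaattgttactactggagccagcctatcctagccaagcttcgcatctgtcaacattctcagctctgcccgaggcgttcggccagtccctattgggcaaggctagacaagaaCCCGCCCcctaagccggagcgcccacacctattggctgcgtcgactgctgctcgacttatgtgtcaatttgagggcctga
Max: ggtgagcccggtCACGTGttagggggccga
Mnt: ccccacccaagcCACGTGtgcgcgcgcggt
Mxi1: tcgcgcggagaaGTAAACAaaccgcgcgcg

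Mxi1 (Mxd2), a Mxd repressor and known target of FoxO factors, was higher in CreER-Raptor GMPs. The kept probe set read 6.41, 6.55 and 6.36 in CreER-Raptor GMPs, against 6.25, 6.02 and 5.72 in WT GMPs. The arrays did not overlap, and Mxi1 rose by 0.44 ± 0.13 (adjusted p = 0.0277). That call was lost without CreER-Raptor GMP replicate 1 (0.45, adjusted p = 0.066) or 2 (0.39, 0.126), or without WT GMP replicate 2 (0.45, 0.0732) or 3 (0.30, 0.173), and when the GMP arrays were fitted alone (0.44, 0.0569). In Lin- cells the same probe set gave 11.53, 11.60, 11.49 and 11.48 for CreER-Raptor, against 11.21, 11.24, 11.45 and 10.93 for WT. No array overlapped there, but the difference of 0.32 ± 0.11 was not called (limma adjusted p = 0.0679). It was called without WT Lin- replicate 3 (0.40, adjusted p = 0.0274). CMPs showed 0.01 ± 0.13 (adjusted p = 0.984).

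The second Mxi1 probe set, examined after the first had been seen, gave genotype differences of 0.31 ± 0.11, 0.44 ± 0.11 and 0.43 ± 0.10 in CMPs, GMPs and Lin- cells, with limma adjusted p of 0.0887, 0.013 and 0.00546. Its Lin- arrays read 9.26, 9.46, 9.20 and 9.11 in CreER-Raptor cells, against 8.86, 8.82, 8.99 and 8.63 in WT cells, again without overlap. The probe sets gave nearly the same genotype difference in GMPs and lay 0.12 apart in Lin- cells and 0.30 apart in CMPs.

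**Figure D3:**
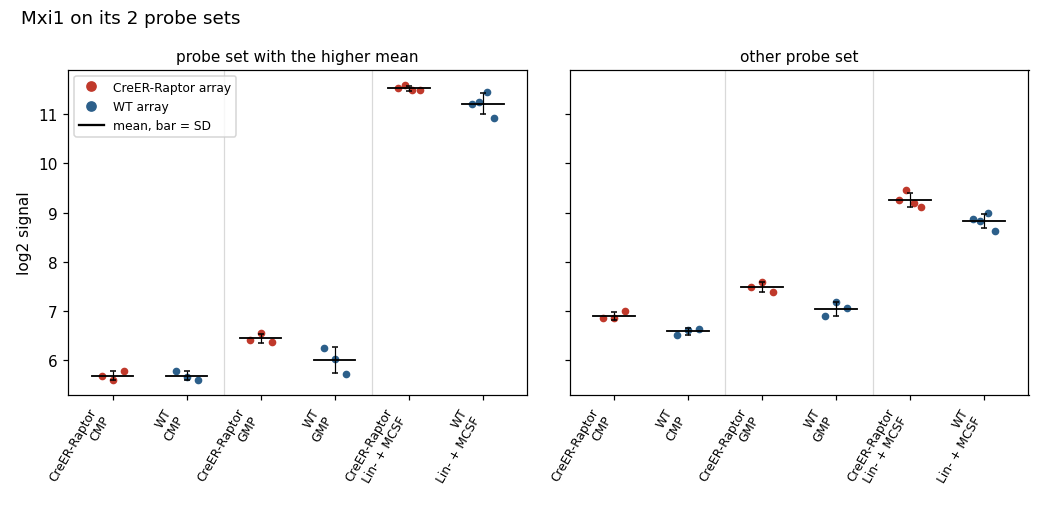
Log2 signal of Mxi1 on each array for the kept probe set (left) and the other one (right), with group means and 1 SD (n = 3 or 4). The step between sorted and cultured Lin- cells is larger on the kept probe set (5.21 for WT Lin- cells minus WT GMPs) than on the other (1.78).

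Mnt, a broadly expressed repressor that opposes Myc at shared sites, had a positive genotype difference in all 3 populations, with a call in none. The differences were 0.24 ± 0.14, 0.32 ± 0.14 and 0.24 ± 0.12 in CMPs, GMPs and Lin- cells (limma adjusted p = 0.342, 0.139 and 0.206). In Lin- cells it read 7.73, 7.76, 7.75 and 8.12 in CreER-Raptor cells, against 7.70, 7.39, 7.69 and 7.63 in WT cells, without overlap. With array weights the GMP difference was called (0.36, adjusted p = 0.00453). Those weights put 4.7 on CreER-Raptor GMP replicate 1, against 0.82 and 0.52 on replicates 2 and 3.

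Mga, the large Max partner of the Polycomb complex PRC1.6, was called in Lin- cells. It read 8.75, 8.77, 9.0 and 8.97 in CreER-Raptor Lin- cells, against 8.52, 8.45, 8.40 and 8.52 in WT Lin- cells. The arrays did not overlap, and Mga rose by 0.40 ± 0.10 (adjusted p = 0.0115), 1.32-fold. With array weights the rise missed the threshold (0.38, adjusted p = 0.0517). In CMPs the CreER-Raptor arrays gave 9.06, 9.02 and 8.62, against 8.79, 8.76 and 8.72 in WT, and the difference was 0.15 ± 0.12 (limma adjusted p = 0.553). GMPs showed 0.04 ± 0.12 (adjusted p = 0.904). The gaps of the Lin- genotype difference to those in GMPs (0.36 ± 0.15, adjusted p = 0.215) and CMPs (0.25 ± 0.15, 0.418) were not called.

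Of the tests of a difference between genotype differences, the one between Lin- cells and CMPs called Mxd4 alone among the 10 members. No member was called by limma between GMPs and CMPs, where 2.50% of genes were and 2 members had an unadjusted p under 0.05, or between Lin- cells and GMPs, where 4.77% were and 2 members had such a p. Array weights called 1 member between GMPs and CMPs, which was Myc, with most of the weight in CreER-Raptor GMPs on replicate 1.

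Across populations, sorted GMPs and CMPs of WT mice differed in 1 member, against 11.0% of all genes. That was Mxd4, higher in GMPs with 7.48, 7.72 and 7.85, against 7.23, 7.19 and 7.24 in CMPs (0.46 ± 0.15, adjusted p = 0.0461). The call was lost with each of the 3 WT CMP arrays left out (0.45 to 0.47) and without WT GMP replicate 2 (0.44, adjusted p = 0.108) or 3 (0.38, 0.232). In CreER-Raptor mice GMPs exceeded CMPs in 3 members, against 27.9% of genes: Mxd4 by 0.78 ± 0.15 (limma adjusted p = 0.00036), Mxi1 by 0.75 ± 0.13 (0.000145) and Mnt by 0.43 ± 0.14 (0.0191). Mnt read 7.86, 7.87 and 7.72 in CreER-Raptor GMPs, against 7.34, 7.27 and 7.54 in CreER-Raptor CMPs. Its call was lost without CreER-Raptor CMP replicate 1 (0.41, adjusted p = 0.0602) or 2 (0.38, 0.0875), or CreER-Raptor GMP replicate 1 (0.41, 0.0652) or 2 (0.41, 0.0697).

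Cultured Lin- cells stood further from the sorted progenitors, as did most genes. In WT mice 7 members were called against CMPs, where 55.6% of genes were, and 4 against GMPs, where 56.3% were. In CreER-Raptor mice 6 were called against CMPs (56.3% of genes) and 6 against GMPs (61.0%). Max was higher in WT Lin- cells than in WT CMPs by 1.18 ± 0.11 (limma adjusted p = 1.1e-08) and Mxd1 by 1.05 ± 0.22 (0.000384). In CreER-Raptor cells the same differences were 1.10 ± 0.11 and 1.13 ± 0.22. Myc was lower in WT Lin- cells, with a difference of -0.88 ± 0.14 to WT CMPs (adjusted p = 1.04e-05) and of -0.60 ± 0.14 to WT GMPs (0.000673). Cell type markers moved in the same comparison. Of the mature neutrophil markers tested, 10 of 10 (median 1.62) were called higher in WT Lin- cells than in WT CMPs. So were 7 of 9 monocyte and macrophage (1.42), 6 of 8 T and NK (2.60) and 5 of 6 B cell markers (1.55). Of all genes, 19.6% were called higher. Called lower were 1 monocyte and macrophage marker and 1 T and NK marker. The T and NK marker Cd3g had a mean under the filter level of 3.86 in WT CMPs. All 10 erythroid markers (median -2.68) and 7 of 10 granulocyte-macrophage progenitor markers (-0.55, with 2 called higher) were lower, where 36.0% of all genes were. Their part in the steps of Max, Mxd1 and Myc was not tested.

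For Myc in CreER-Raptor mice the Lin- arrays, at 9.85 to 10.00, lay below the GMP arrays, at 10.26 to 10.50, a difference of -0.48 ± 0.14 (limma adjusted p = 0.00451). Against CreER-Raptor CMPs it was -0.36 ± 0.14 (adjusted p = 0.0299), a call lost without CreER-Raptor CMP replicate 1 (-0.36, 0.0647) or 3 (-0.21, 0.231) or CreER-Raptor Lin- replicate 1 (-0.33, 0.0646) or 3 (-0.34, 0.0546), and with arrays centred on their median (-0.32, 0.0565). Cyclic loess, which set the median difference of all genes near 0 where the deposited values had -0.115 to -0.154, removed both calls (-0.28, adjusted p = 0.0844, and -0.10, 0.568). Cyclic loess also added calls. Mxd3 was then higher in WT Lin- cells than in WT CMPs (0.31, adjusted p = 0.00898) and in CreER-Raptor Lin- cells than in CreER-Raptor GMPs (0.24, 0.0364). Mnt was then higher in WT Lin- cells than in WT GMPs (0.35, 0.0286). The difference of Mga between WT Lin- cells and WT CMPs was -0.28 ± 0.11 (adjusted p = 0.0315), which cyclic loess reduced to -0.02 (0.914). That call was also lost with each of the 3 WT CMP arrays left out, at differences of -0.30 to -0.26, without WT Lin- replicate 2 (-0.27, 0.056) or 3 (-0.26, 0.0688), with quantile normalization repeated (-0.24, 0.0637) and with arrays centred on their median (-0.22, 0.0927). Mnt, at 0.46 ± 0.13 (adjusted p = 0.00398), and Mxd4, at 0.42 ± 0.14 (0.013), were higher in WT Lin- cells than in WT CMPs. The Mxd4 call was lost without WT Lin- replicate 2 (0.32, 0.0535). Against WT GMPs neither was called (Mnt 0.11, limma adjusted p = 0.48, and Mxd4 -0.04, 0.811). In CreER-Raptor mice Mxd4 was higher in Lin- cells than in CMPs by 1.29 ± 0.14 (5.55e-08) and than in GMPs by 0.51 ± 0.14 (0.00288). Mnt was there higher than in CMPs (0.46 ± 0.13, 0.00385) and not called against GMPs (0.02, 0.88).

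Mxi1 had the widest step of the 10 members on its kept probe set. WT Lin- arrays read 11.21, 11.24, 11.45 and 10.93, against 5.78, 5.66 and 5.60 on WT CMP arrays, a difference of 5.53 ± 0.12 (adjusted p = 1.42e-18). Of all genes tested, 31 were higher by at least 4 log2 units in this comparison, and Mxi1 ranked 4 from the top. The kept probe set had the higher mean only through the Lin- arrays. In sorted cells the other read higher, at 6.59 against 5.68 in WT CMPs and 7.05 against 6.0 in WT GMPs. The step and rank of the kept probe set thus draw on the values that chose it. For WT Lin- cells minus WT CMPs the other Mxi1 probe set gave 2.24 ± 0.11 (adjusted p = 3.58e-13), so the probe sets stood 3.29 log2 units apart. Such gaps were common: 236 of the 821 genes with several tested probe sets (28.7%) differed by over 2 log2 units between them for WT Lin- cells minus WT CMPs, whereas 1 (0.122%) did for WT GMPs minus WT CMPs. The median gap over the 821 genes was 0.93 for WT Lin- cells minus WT CMPs and 0.95 for WT Lin- cells minus WT GMPs, against 0.16 to 0.18 for the genotype differences. Both Mxi1 probe sets were higher in Lin- cells, with a size that depends on the probe set. The steps of Max (1.18), Mxd1 (1.05), Mxd4 (1.29 in CreER-Raptor cells against CMPs) and Myc (-0.88 and -0.60) rest on 1 probe set each. They are of the order of that median gap. Gate, culture and any difference in how the Lin- and sorted samples were handled cannot be told apart in this design.

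By their profiles over the 20 arrays, the order of the 6 groups for Myc was CreER-Raptor GMPs (10.40), CreER-Raptor CMPs (10.28), WT CMPs (10.19), CreER-Raptor Lin- cells (9.92), WT GMPs (9.91) and WT Lin- cells (9.31). Arrays of neighbours in this order overlapped except between WT CMPs and CreER-Raptor Lin- cells and between the last pair. For Mxd3 the 3 WT groups (6.68 in GMPs, 6.67 in Lin- cells, 6.55 in CMPs) all stood above the CreER-Raptor groups (6.27 in CMPs, 6.18 in Lin- cells, 6.09 in GMPs). The arrays were apart only at the step between WT CMPs and CreER-Raptor CMPs. Mxd4 was highest in CreER-Raptor Lin- cells (7.91) and lowest in CreER-Raptor CMPs (6.62), and only that lowest group was apart from its neighbour, WT CMPs. The genes of most similar profile, by the root mean square difference of centred log2 values over 20 arrays, were Pdk1 (0.185), Lrp6 (0.193) and Tbrg1 (0.195) for Myc. For Max they were Tmem185b (0.12), Gnai3 (0.129) and Prkrip1 (0.133), for Mxd1 Lhfpl2 (0.243), Bmpr1a (0.246) and Cdc42ep2 (0.246), and for Mxd4 Mgst2, Acox3 and Lxn (0.187 each). Bmpr1a had means of 3.63 to 3.70 in the sorted groups, under the filter level of 3.86. It passed the filter only through the Lin- arrays, so its likeness to Mxd1 is partly set by the filter. Mxi1 was matched by Atp5d (0.344), Trav9d-3 (0.399) and Myl12a (0.416), which also read higher on the Lin- arrays. These likenesses are descriptions over arrays that share groups.

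Of known Myc-induced genes 37 were tested, and 5 were called between genotypes in CMPs, 3 in GMPs and 3 in Lin- cells, close to the shares of all genes called there (11.4%, 11.9% and 12.5%). In CMPs 4 were called higher and 1 lower, with a median difference of 0.20. These included Slc7a5, a large neutral amino acid transporter, at 0.51 ± 0.11, Odc1, the first enzyme of polyamine synthesis, at 0.40 ± 0.12, and the hexokinase gene Hk2 at -0.61 ± 0.13 (limma adjusted p = 0.00347, 0.0271 and 0.00223). In GMPs 2 were higher and 1 lower (median 0.16), again Odc1 (0.38) and Slc7a5 (0.37) against Hk2 (-0.41). In Lin- cells 2 were higher and 1 lower (median 0.05): Eif4a1, an RNA helicase of translation initiation (0.54 ± 0.11), and Polr1b, a subunit of RNA polymerase I (0.44 ± 0.13), against Shmt2, a mitochondrial enzyme of one-carbon metabolism (-0.43 ± 0.10). At an unadjusted p under 0.05, 12 were higher and 2 lower in CMPs, where 11.6% and 10% of all genes were. By the same measure 10 were higher and 1 lower in GMPs (9.89% and 13.5% of all genes), and 6 were higher and 1 lower in Lin- cells (14.1% and 11.8%). The list medians were not tested against each other between populations, and the part of Myc in them was not tested. Of 9 Myc-repressed genes tested, limma called 0 in CMPs (1 at an unadjusted p under 0.05), 1 in GMPs and 2 in Lin- cells. These were the cell cycle inhibitor Cdkn2c in GMPs (-0.86 ± 0.18), and Gadd45b (0.99 ± 0.15) and the inhibitor Cdkn1a (-0.47 ± 0.13) in Lin- cells.

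The lists of partners and regulators of Myc are short, and with 11.4% to 12.5% of all genes called between genotypes their counts of 0 or 1 lie near the general share. Of 14 tested cofactors such as Trrap and Ep400, limma called 0 in each population (0, 2 and 1 at an unadjusted p under 0.05 in CMPs, GMPs and Lin- cells). Of 9 corepressor genes used by Mxd proteins it called 0 in CMPs (1 unadjusted), 1 in GMPs (Suds3, -0.56 ± 0.14) and 1 in Lin- cells (Sap30, -0.27 ± 0.09). Of 9 subunits that work with Mga in PRC1.6, Pcgf6 alone was called, at 0.68 ± 0.15 in CMPs and 0.43 ± 0.13 in Lin- cells (adjusted p = 0.00275 and 0.0308), while GMPs had 0 (5 unadjusted). The 5 other E-box factors (Mlx and Usf genes among them) and the 9 mTORC1 pathway genes had 0 calls by limma in all 3 populations, with at most 1 and 2 of them under an unadjusted p of 0.05.

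The 16 tested genes of Myc protein turnover gave 1 call higher in CMPs, 1 higher and 4 lower in GMPs, and 3 higher and 3 lower in Lin- cells. Of all genes 6.01%, 4.37% and 6.82% were called higher and 5.44%, 7.53% and 5.73% lower in these populations. Usp36, a nucleolar deubiquitinase known to stabilise Myc, was higher in all 3 (0.55 ± 0.14, 0.68 ± 0.14 and 0.47 ± 0.12, limma adjusted p = 0.0109, 0.00209 and 0.0134). Cip2a, which protects Myc by inhibiting the phosphatase PP2A, was lower in GMPs (-0.60 ± 0.14) and Lin- cells (-0.63 ± 0.12), as was the mitotic kinase Plk1 (-0.56 ± 0.11 and -0.37 ± 0.10). Fbxo32, a ubiquitin ligase subunit and FoxO target, rose by 0.48 ± 0.12 in Lin- cells (adjusted p = 0.00858). Aurka and Plk1 are also mitotic genes, so this list is not separate from the next one.

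Cell cycle genes were set beside Mxd3 because of its known tie to dividing cells. Of 19 genes of G2 and mitosis, 15 were lower in CreER-Raptor GMPs, 8 in Lin- cells and 1 in CMPs, and none was higher (medians -0.64, -0.34 and -0.06). Over all genes, 7.53%, 5.73% and 5.44% were called lower. Kif23 (-1.38 ± 0.14) and Nusap1 (-0.99 ± 0.11) were among those lower in GMPs, and Aurkb (-0.52 ± 0.09) and Cdc20 (-0.39 ± 0.08) among those lower in Lin- cells. Of 20 S phase genes, 5 were lower in GMPs, 3 in Lin- cells and 0 in CMPs by limma (2 lower and 1 higher at an unadjusted p under 0.05 there), with medians of -0.28, -0.19 and -0.12. Examples were Pola1, the catalytic subunit of DNA polymerase alpha (-0.76 ± 0.14 in GMPs), and Rrm1, a ribonucleotide reductase subunit (-0.48 ± 0.09 in Lin- cells). Their part in the Mxd3 difference was not tested.

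**Figure D4:**
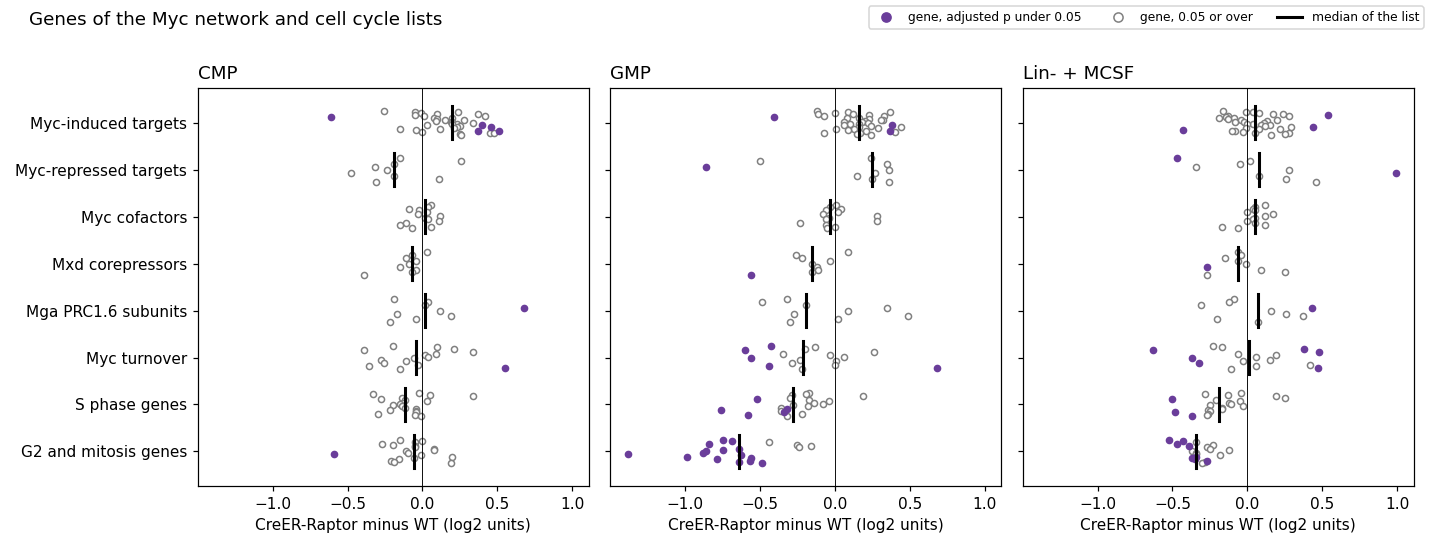
Difference CreER-Raptor minus WT in log2 units for genes of 8 lists (rows) in CMPs, GMPs and Lin- cells with M-CSF; 1 point per gene, filled where the adjusted p was under 0.05, with a black line at the list's median. Genes of G2 and mitosis lie to the left in GMPs (median -0.64) and Lin- cells (-0.34), while Myc-induced genes lie around 0.20 in CMPs, 0.16 in GMPs and 0.05 in Lin- cells.

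Markers of several blood cell types differed between genotypes as well. Of 10 erythroid markers tested, 9, 6 and 8 were higher in CreER-Raptor CMPs, GMPs and Lin- cells, where 6.01%, 4.37% and 6.82% of all genes were. Their summed linear signal was 10900 to 16210 in CreER-Raptor CMPs, against 4421 to 5622 in WT CMPs. In GMPs it was 881.1 to 2463 for CreER-Raptor, against 443.4 to 537 for WT, and in Lin- cells 758.9 to 1175, against 383.8 to 472.3. Of 9 monocyte and macrophage markers, 5, 6 and 7 were lower. Their summed signal was 3770 to 4200 in CreER-Raptor CMPs against 7922 to 8547 in WT, 6347 to 6766 in CreER-Raptor GMPs against 10070 to 10790 in WT, and 7596 to 7799 in CreER-Raptor Lin- cells against 10470 to 12580 in WT. Mature neutrophil markers were lower in 8, 5 and 3 of 10 (with 1 higher in GMPs). They summed to 2787 to 3405 in CreER-Raptor CMPs against 7441 to 8997 in WT, to 5272 to 6023 in CreER-Raptor GMPs against 6788 to 9226 in WT, and to 19290 to 23550 in CreER-Raptor Lin- cells against 17470 to 36870 in WT. No erythroid, monocyte or neutrophil marker tested had a group mean under the filter level of 3.86. The T and NK markers Cd3g in WT CMPs and Il7r in WT GMPs did, as did the B cell marker Vpreb1 in WT Lin- cells. In CreER-Raptor Lin- cells 5 of 7 stem and multipotent markers, 4 of 6 megakaryocyte markers and 3 of 8 T and NK markers were higher, and none of them was lower. Stem and multipotent markers summed to 679.5 to 775.8 there, against 458.4 to 563.4 in WT Lin- cells, and megakaryocyte markers to 620.6 to 774.5, against 362.9 to 536.4. In CreER-Raptor GMPs 4 of 6 mast and basophil markers were higher, with a summed signal of 5830 to 6874 against 3896 to 4166 in WT GMPs. In CMPs 1 of these 6 was higher, and in Lin- cells 1 was higher and 2 were lower. Eosinophil markers were lower in 2, 3 and 1 of 4 in CMPs, GMPs and Lin- cells. They summed to 270.1 to 464.8 in CreER-Raptor CMPs against 748.7 to 1390 in WT CMPs, and to 1452 to 1924 in CreER-Raptor GMPs against 3307 to 5105 in WT GMPs. In Lin- cells the sums overlapped. Dendritic markers were higher in 4 of 8 in CMPs (1998 to 2655 in CreER-Raptor, against 1198 to 1326 in WT) and in 3 of 8 in GMPs (1246 to 1449, against 752.3 to 845.3). Of 6 B cell markers at most 1 was called in any population. The part of these markers in the differences of Myc, Mxd3, Mxd4, Mxi1 and Mga was not tested. The 10 markers of granulocyte-macrophage progenitors had mean log2 signals of 10.77 to 10.94 in CreER-Raptor GMPs and 10.82 to 10.95 in WT GMPs, and of 10.06 to 10.15 in CreER-Raptor CMPs and 10.48 to 10.71 in WT CMPs. In Lin- cells they had 10.43 to 10.58 in CreER-Raptor and 10.10 to 10.38 in WT, again without overlap. Calls between genotypes were 1 higher and 6 lower in CMPs, 1 higher and 1 lower in GMPs, and 2 higher in Lin- cells, where 7 were higher at an unadjusted p under 0.05.

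Between populations, the Myc-induced list was lower in WT Lin- cells than in WT CMPs in 27 of 37 genes and higher in 7 (median -0.72), where 36.0% and 19.6% of all genes were lower and higher. Cad, the enzyme of the first steps of pyrimidine synthesis, was at -2.39 ± 0.11 and the ribosome assembly gene Bop1 at -2.29 ± 0.11 (limma adjusted p = 2.8e-13 and 3.58e-13). In this comparison 28.7% of genes with several tested probe sets differed by over 2 log2 units between them. Gate, culture and handling cannot be told apart here either. WT GMPs minus WT CMPs gave 9 lower and 1 higher (median -0.13), where 4.35% and 6.65% of all genes were lower and higher. They included Ncl (-0.55 ± 0.12) and Hspd1 (-0.63 ± 0.13) lower and Shmt2 (0.61 ± 0.12) higher. Myc was itself at -0.28 ± 0.14 between WT GMPs and WT CMPs (limma adjusted p = 0.261), and it was called with array weights (-0.31, 0.0324).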

How the data were processed

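Total RNA (1 to 5 ng) was amplified with NuGEN reagents, labelled with biotin and hybridised to single-channel arrays, per the labels' protocols. The authors deposited log2 values per probe set. RMA, Partek 6.6 and limma are named, without roles, in the submitters' processing notes. RMA normalizes arrays to each other, which hides changes common to most genes. Scanner files were not used, so signals were not compared with background, and the number of arrays limits the precision.

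Columns were matched to samples by title. For each gene the brightest single-symbol probe set was kept, and a gene was tested if its mean reached the 25th percentile of such probe sets (log2 3.86). Differences were fitted with limma 3.58.1 (R 4.3.3; lmFit, contrasts.fit, eBayes) in 1 fit of 20 arrays with 6 group means and 14 residual degrees of freedom, over 12 comparisons. Marker sums are sums of unlogged values. The named genes are all members, Rptor, up to 4 called genes of smallest p per list, and up to 3 genes of most similar profile for members whose group means span at least 1 log2 unit. Members and lists were chosen with earlier results of these data known. Alternatives were other filters, probe set rules, normalizations, array weights, eBayes settings, a replicate block, a fold threshold and each array left out.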

Additional observations from a re-analysis of the deposited data

Results flagged for a closer look

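Within single groups of 4 arrays, 2 values stood apart from the others by Dixon's test at the 95% level. Mxd4 read 7.94 on WT Lin- replicate 2, while the other WT Lin- arrays lay between 7.49 and 7.57. Mnt read 8.12 on CreER-Raptor Lin- replicate 4, while the other CreER-Raptor Lin- arrays lay between 7.73 and 7.76. Chance marks about 1 in 20 groups in this way. The genotype difference of Mxd4 in Lin- cells exceeded that in CMPs by 0.87 (limma adjusted p = 0.00572), and by 0.75 to 0.97 with any of the 14 arrays left out.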

How the results depend on the processing

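Of 2536 recomputed differences of single members, 2433 kept their side of the threshold, 73 lost a call and 30 gained one. Most members were not called in the main fit to begin with. The number kept is therefore no measure of how firm the calls are. No called difference changed sign, and 90 differences changed sign with neither value called. Requiring a fold change of at least 1.5 left 0 members called in the genotype comparisons of CMPs, GMPs and Lin- cells, for the Lin- against CMP test of genotype differences and for GMPs against CMPs of either genotype. It left 2 for WT Lin- cells against WT CMPs or WT GMPs and for CreER-Raptor Lin- cells against GMPs, and 3 against CreER-Raptor CMPs. Array weights gave 2 members called in CMPs, 1 and 2 in the GMP against CMP and Lin- against CMP tests of genotype differences, and 4 for WT GMPs against WT CMPs. That last count was 0 with no filter, with cyclic loess and with the replicate block, and 2 with probe sets averaged per gene or the other Mxi1 probe set, that probe set being chosen after seeing the data. The causes were not tested. Replicate numbers were not taken to pair samples: deviations of same-numbered arrays from their group means correlated at -0.344 to 0.119 between genotypes, and at 0.048 to 0.185 between CreER-Raptor GMPs and CMPs, where each array correlated best with its own number. With the replicate block Mycn was called in Lin- cells (0.42, adjusted p = 0.0421) and Mga lost its call between CreER-Raptor Lin- cells and GMPs (0.23, 0.0809), and no other call changed besides Mxd4 between WT GMPs and WT CMPs (0.46, 0.058). With each array left out, the members called numbered 0 to 1 in CMPs, 1 to 2 in GMPs and 3 to 4 in Lin- cells. For tests of genotype differences they numbered 0 to 0 for GMPs against CMPs, 1 to 2 for Lin- cells against CMPs and 0 to 1 for Lin- cells against GMPs. In WT mice they numbered 0 to 1 for GMPs against CMPs, 6 to 7 for Lin- cells against CMPs and 4 to 5 against GMPs. In CreER-Raptor mice they numbered 2 to 4, 5 to 6 and 5 to 6 for the same comparisons. Mycn and Mycl were too dim to be tested under the 50th percentile filter. Probes were not compared with background, so a low signal is no measure of absence.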
